A study of Mus musculus with 31 samples.

Results

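The mitochondrial ribosomal proteins were taken as the 78 genes whose symbol is Mrpl or Mrps followed by a number and at most 1 letter from a to c, which gave 49 genes named for the large subunit and 29 named for the small subunit. The same 78 genes were present in each of the 3 count tables, among 55487, 56980 and 56941 genes. All 78 passed the filter on low counts in every table, and the lowest count of any of them in any sample was 287. RNA-seq was carried out on 31 samples of Panc02, a murine pancreatic adenocarcinoma cell line (the cell line label of the rescue samples carries a different Panc number for each sample, and the study names Panc02 throughout). The first table held Panc02 spheroids grown in Matrigel with control medium (Ctrl) or with medium conditioned by untreated macrophages derived from bone marrow (M0-CM) or by macrophages treated with IFNγ and LPS (M1-CM), with n = 3 in each group. The second table held wild-type (WT) and Cxcl5-/- cells, each grown as a 2D monolayer and as 3D spheroids, with n = 3 in each group. The third, called the rescue table here, held 3D cultures of WT cells (n = 2), Cxcl5-/- cells (n = 2), Cxcl5-/- cells overexpressing a stabilised mutant of mouse Hif1a (Hif1a OE, n = 3) and Cxcl5-/- cells overexpressing Myc (Myc OE, n = 3). The knockout was made with a lentiviral CRISPR vector selected by puromycin, and both overexpression lines carry a pLPCX retrovirus on top of that knockout. The study speaks of biological replicates for its experiments in general, but the labels do not say whether the sequenced samples of a group came from separate cultures, so every p-value measures the spread between these samples, which may be technical.

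Mitochondria keep their own ribosome, which translates the messages of the mitochondrial genome, all of them for subunits of the respiratory chain and ATP synthase. Its RNAs are made inside the organelle, but each of its proteins is encoded in the nucleus, made by cytosolic ribosomes and imported. Some of these proteins descend from bacterial ribosomal proteins, and others were added during mitochondrial evolution. MYC and the nuclear respiratory factors are known activators of many genes for ribosomes and mitochondria, and HIF-1α, the oxygen-regulated subunit of HIF-1, is known for shifting metabolism from respiration to glycolysis.

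Library totals were between 43875429 and 78498230 counts in the conditioned medium table, 46973008 and 72361685 in the 2D and 3D table, and 41542533 and 64872036 in the rescue table. Levels are given as CPM (counts scaled to a fixed library size) after TMM scaling, in which each library is scaled by a trimmed mean of its log ratios to a reference library. The study checked the Cxcl5 knockout by immunoblot of the protein, which transcript counts do not measure. The transcript of the targeted gene went against the label in 1 pair of groups: Cxcl5 was lower in the 3D WT libraries (28.5, 24.5 and 28.0 CPM) than in those labelled 3D Cxcl5-/- (65.5, 40.9 and 45.4 CPM). It was lower in the libraries labelled Cxcl5-/- in 2D (32.7 to 37.4 against 45.6 to 49.1 CPM) and in the rescue table (36.6 and 40.2 against 64.2 and 67.7 CPM). Myc was at 397 to 548 CPM in the 3 Myc OE libraries, above the 20.0 to 49.3 CPM of all other libraries of that table. Hif1a was at 243 to 296 CPM in Hif1a OE, against 133 and 144 CPM in the Cxcl5-/- libraries and 304 and 324 CPM in WT, but it was as high in Myc OE (241 to 271 CPM, log2 difference from Hif1a OE −0.04, adjusted p = 0.826), so that its transcript does not set the Hif1a OE libraries apart. The epithelial markers Epcam and Cdh1 were at or below 0.61 CPM in every library, so the labelled epithelial origin was not visible in them. Other genes of that list were present, with Krt8 at 134 to 648 CPM and Krt18 at 52.9 to 384 CPM in the 2D and 3D table. The fibroblast marker Thy1 was at or below 0.60 CPM. Of the 7 macrophage marker genes Ptprc and Adgre1 were at or below 1.92 CPM in every library, while others were present, with Cd14 at 26.1 to 42.8 CPM and Lyz2 at 0.78 to 15.6 CPM in the 2D and 3D table, and the summed level of the list was 28.0 to 76.7 CPM over all libraries. The summed level of 7 epithelial marker genes was 853 to 1097 CPM in 3D WT and 217 to 236 CPM in 3D Cxcl5-/-. Krt8 and Krt18 made up most of it. Krt7 went the other way (0.42 to 0.89 CPM in WT and 3.07 to 3.24 CPM in Cxcl5-/-), and Sox9 overlapped (12.9 to 14.6 and 13.9 to 26.8 CPM). The summed level of 6 fibroblast marker genes was 72.9 to 75.9 CPM in 3D WT and 204 to 235 CPM in 3D Cxcl5-/-, but its genes went in different directions: Pdgfra was at 20.1 to 23.6 CPM in WT and 194 to 225 CPM in Cxcl5-/-, and Dcn at 35.5 to 39.1 CPM in WT and 1.59 to 4.13 CPM in Cxcl5-/-. In 2D the fibroblast sum was lower in Cxcl5-/- (10.2 to 11.8 CPM) than in WT (24.7 to 26.7 CPM). The part of these cell state markers in the results was not tested.

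The stretches of DNA just before the start site were read for members that the results turn on (RefSeq, GRCm38.p6; written 5′ to 3′ on the strand of the gene). The capitals mark matches, on either strand, to CACGTG (the E-box bound by MYC and other factors of its class), CCGGAAG (ETS factors), GCGCATGC (NRF1) or ATGGCG (YY1). Mrpl12 and Mrps15 are shown because they gave the largest difference between genotypes in 3D and the largest between Myc OE and Cxcl5-/-, Mrpl32, Mrpl53 and Mrpl36 as members among the largest differences whose stretch holds matches, and Mrpl2 as 1 of the few members with an E-box.
Mrpl12, chr11:120484537-120484636, plus strand: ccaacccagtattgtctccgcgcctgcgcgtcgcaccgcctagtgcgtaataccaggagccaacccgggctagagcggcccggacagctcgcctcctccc
Mrps15, chr4:126046828-126046927, plus strand: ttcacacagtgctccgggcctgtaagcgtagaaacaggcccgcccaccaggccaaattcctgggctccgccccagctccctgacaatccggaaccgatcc
Mrpl32, chr13:14613038-14613137, minus strand: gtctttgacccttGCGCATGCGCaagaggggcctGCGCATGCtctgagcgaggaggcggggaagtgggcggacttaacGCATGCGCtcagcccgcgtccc
Mrpl53, chr6:83109008-83109107, plus strand: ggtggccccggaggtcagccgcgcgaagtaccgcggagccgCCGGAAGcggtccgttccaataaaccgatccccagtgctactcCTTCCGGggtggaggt
Mrpl36, chr13:73330909-73331008, plus strand: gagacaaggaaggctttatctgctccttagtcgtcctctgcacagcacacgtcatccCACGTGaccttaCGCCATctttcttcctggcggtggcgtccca
Mrpl2, chr17:46646071-46646220, plus strand: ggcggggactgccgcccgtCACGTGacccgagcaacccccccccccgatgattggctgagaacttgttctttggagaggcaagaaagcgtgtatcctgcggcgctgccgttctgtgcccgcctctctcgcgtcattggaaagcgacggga

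No match to the 4 motifs was found in the stretches of Mrpl12 and Mrps15. Mrpl32 held 4 matches to the NRF1 letters, of which the first pair overlap each other. Over the whole window of 300 bases (250 before to 50 after the start), 69 of the 78 members had a listed promoter. CCGGAAG was found in 26 of these members (37.7%) against 9.93% of all 27025 genes with a listed promoter, ATGGCG in 19 (27.5% against 10.2%) and GCGCATGC in 8 (11.6% against 3.05%). CACGTG was found in 5 members, Mrpl2, Mrpl20, Mrpl36, Mrpl37 and Mrps18c (7.25% against 8.09%). Among large subunit genes 34.9% held CCGGAAG and 16.3% GCGCATGC, and among small subunit genes 42.3% and 3.85%. These matches are descriptions of the letters in the window and do not show binding.

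The members differed in level among themselves. Per kilobase of merged exon length and averaged over the groups of all 3 tables, which were normalised separately, Mrps21 (61.4 CPM per kb), Mrpl54 (54.4) and Mrpl28 (50.1) were the highest, and Mrps35 (2.30), Mrps10 (2.98) and Mrpl47 (3.72) the lowest, a 26.7-fold range around a median of 12.1 CPM per kb. The merged exon length counts every annotated exon once, so genes with long alternative exons, such as Mrps35 at 8631 bp, are placed low on this scale. The median level was 14.3 CPM per kb over large subunit genes and 10.7 CPM per kb over small subunit genes.

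Summed over the 78 genes, the level was highest in 2D cultures within the 2D and 3D table and in the overexpression lines within the rescue table, and lowest in 3D Cxcl5-/- cells in both. The tables were normalised separately, so levels set side by side across tables carry that limit. The sum was 3216 ± 116 CPM (SD, n = 3) in 2D WT and 3155 ± 172 CPM (SD, n = 3) in 2D Cxcl5-/-, with overlapping libraries. In 3D it was 2551, 2353 and 2405 CPM in WT and 2078, 1496 and 1727 CPM in Cxcl5-/-, so that every 3D library lay below every 2D library and every 3D Cxcl5-/- library below every 3D WT library. In the rescue table the sum was 2471 and 2455 CPM in WT, 1539 and 1580 CPM in Cxcl5-/-, 3016, 3722 and 2723 CPM in Hif1a OE and 3807, 3613 and 3193 CPM in Myc OE, and all overexpression libraries stood above both WT libraries. The ratio of the large to the small subunit sum stayed between 1.80 and 2.11 in all 31 libraries. No test was run on these sums, and bulk RNA cannot tell fewer expressing cells from less RNA in each cell.

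**Figure D1:**
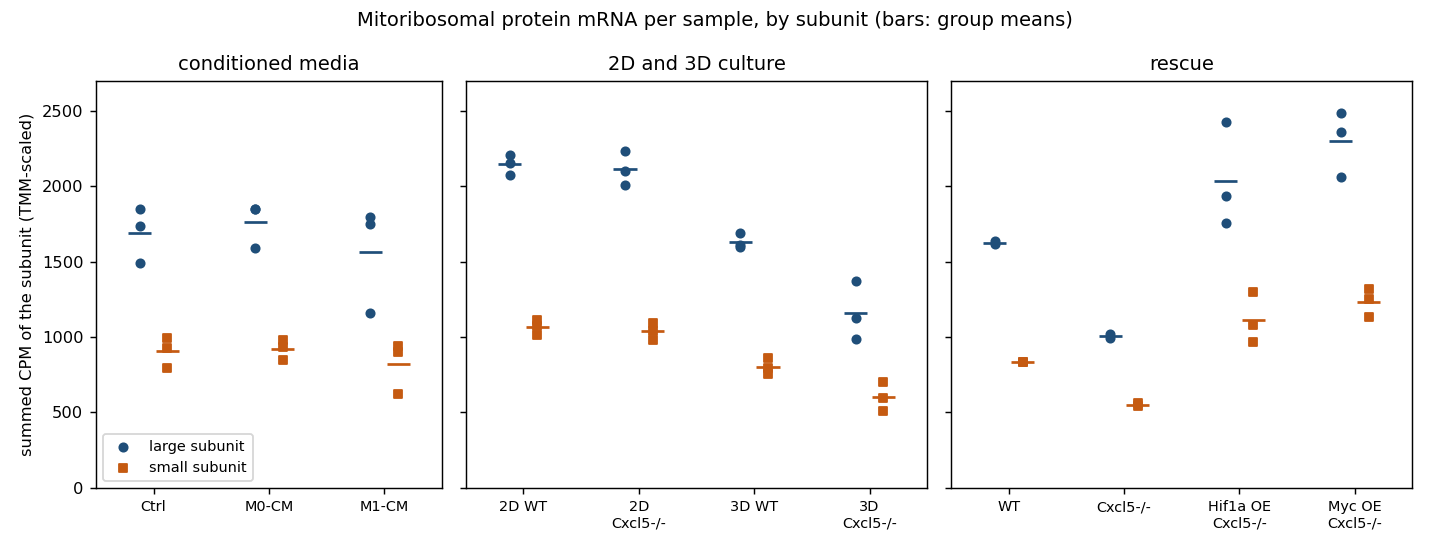
Summed CPM of the 49 large subunit genes (circles) and the 29 small subunit genes (squares) in each library, with a bar at each group mean, in 3 panels for the 3 separately normalised tables. The 3D Cxcl5-/- libraries lie below the WT libraries of their table for both subunits, and the Hif1a OE and Myc OE libraries lie above them.

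Growth in 3D went with lower transcript levels of most members. Comparing 3D with 2D in WT cells, 41 of the 78 members were called lower and 1 higher at an adjusted p under 0.05, where 22.0% of the 21367 genes tested were called lower and 22.2% higher. The median log2 difference of the members was −0.35, and that of all genes 0.00. With library totals, which moved the median of all genes by −0.21, 68 were called lower and 0 higher.
Mrpl18, the counterpart of the bacterial protein that binds 5S rRNA, was at 95.7, 89.8 and 93.6 CPM in 2D WT and at 36.4, 40.9 and 31.0 CPM in 3D WT. These groups did not overlap, and the log2 difference of −1.37 ± 0.13 (SE) had an adjusted p of 1.69e-06. Mrpl46, a protein of the central protuberance that is specific to mitochondria, fell from 25.6, 29.2 and 31.5 CPM to 12.5, 12.7 and 12.2 CPM (−1.21 ± 0.12, adjusted p = 2.76e-06). Mrps7, which lies in the head of the small subunit, fell from 72.3, 64.2 and 75.6 CPM to 40.4, 33.5 and 33.8 CPM (−0.98 ± 0.12, adjusted p = 1.8e-05). Again no 3D library reached a 2D library for either gene. Mrpl24 was the member called higher, at 39.1, 35.4 and 39.1 CPM in 2D WT and 52.0, 61.1 and 46.9 CPM in 3D WT (0.49 ± 0.12, adjusted p = 0.00365), a call that was lost with library totals. Of the large subunit genes 27 of 49 were called lower (median −0.38) and of the small subunit genes 14 of 29 (median −0.33).

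In Cxcl5-/- cells the same comparison gave 75 members lower and 0 higher, with 28.2% of all genes called lower and 28.7% higher. The median log2 difference of the members was −0.84, against 0.11 for all genes. Mrpl12, the stalk protein through which translation factors are recruited, was at 74.6, 63.9 and 34.9 CPM in 2D Cxcl5-/- and at 9.48, 11.4 and 9.10 CPM in 3D Cxcl5-/- (−2.53 ± 0.22, adjusted p = 5.24e-07). The 2D libraries were spread over more than the 3D libraries, with replicate 3 the lowest, and still lay wholly above them. Mrpl50, a large subunit protein without a bacterial counterpart, was at 60.1, 52.6 and 53.6 CPM in 2D and 22.9, 22.5 and 21.3 CPM in 3D (−1.32 ± 0.08, adjusted p = 2.44e-08). Mrpl53 was at 37.8, 29.5 and 30.1 CPM in 2D and 14.1, 9.33 and 11.5 CPM in 3D (−1.48 ± 0.16, adjusted p = 2.59e-06). For both genes the cultures were fully apart. The 3 members that were not called were Mrpl33 (−0.17), Mrps6 (−0.06) and Mrpl24 (0.14).

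In 2D no member was called between the genotypes. Comparing 2D Cxcl5-/- with 2D WT, edgeR called 0 of 78 members in either direction (2 higher and 3 lower at an unadjusted p under 0.05, and 0 higher and 2 lower by DESeq2), with 3.86% of all genes called higher and 3.17% lower, and the members' median log2 difference was −0.02. In 3D, 54 members were called lower and 1 higher in Cxcl5-/- than in WT, with 25.3% of all genes called lower and 19.7% higher. The members' median was −0.49 and that of all genes −0.04, and in 49 of the 54 the 3 libraries labelled Cxcl5-/- lay wholly below the 3 WT libraries. For all 23 members not called the genotypes overlapped, so this separation goes with the call and is no further support for it.
These counts depend on how the libraries were scaled. The TMM factors were 0.82 to 0.91 in 3D WT and 1.01 to 1.22 in 3D Cxcl5-/-, and scaling by library totals alone moved the median of all genes by 0.39 and gave 20 members lower and 13 higher. The shares of all genes above belong to TMM scaling and are no background for these counts. The member median relative to that of all genes was −0.45 with TMM and −0.46 with library totals. As a share of all counts the members took 0.220, 0.214 and 0.197% in 3D WT and 0.210, 0.183 and 0.200% in 3D Cxcl5-/-, which overlap.

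**Figure D2:**
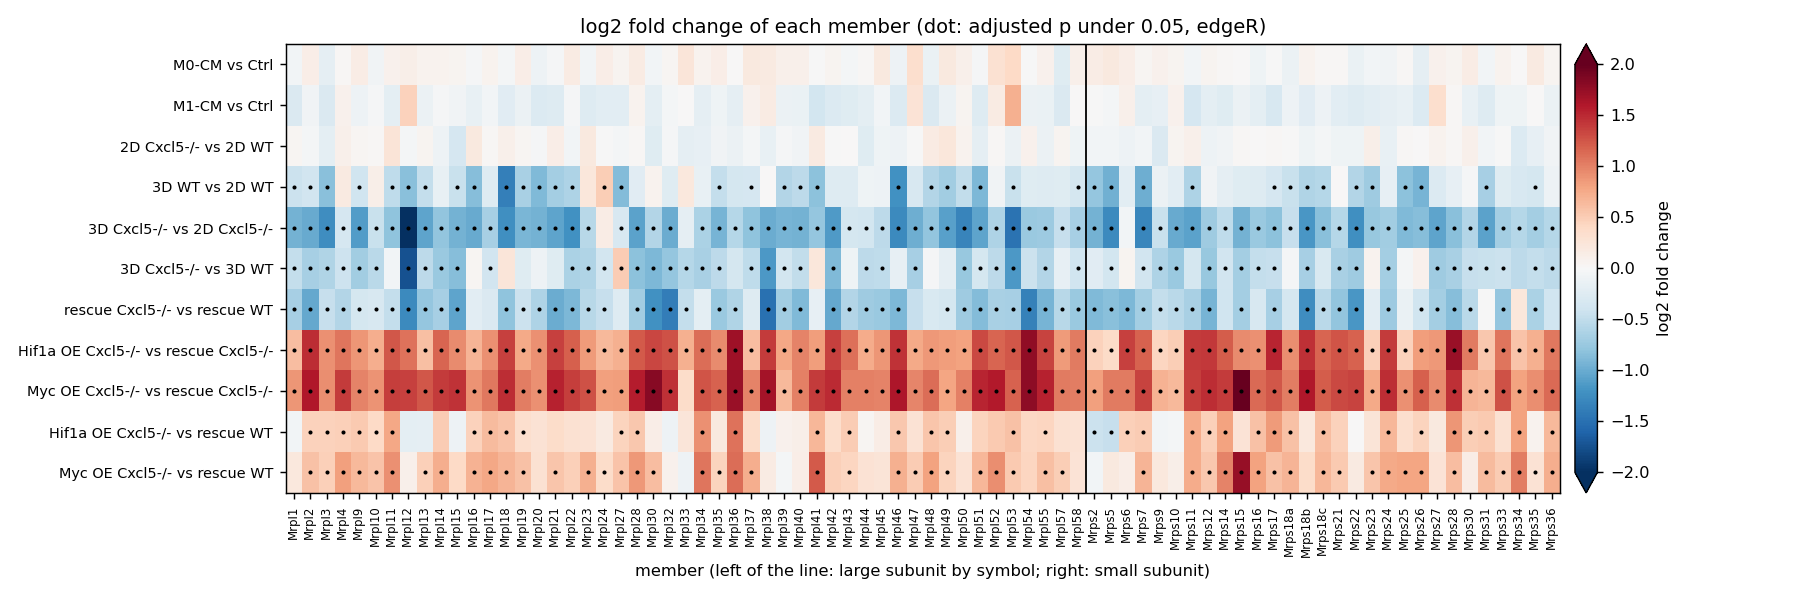
Log2 difference of each of the 78 members (columns, large subunit left of the line and small subunit right of it) in 11 comparisons (rows), with colours limited to ±2 and a dot where the adjusted p was under 0.05. The rows of Hif1a OE and Myc OE against Cxcl5-/- are higher in nearly every column, and those of 3D Cxcl5-/- against 3D WT and against 2D Cxcl5-/- are lower in most columns.

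Mrpl12 had the largest genotype difference in 3D, at 38.1, 33.8 and 28.2 CPM in WT and 9.48, 11.4 and 9.10 CPM in Cxcl5-/- (−1.74 ± 0.22, adjusted p = 2.61e-05). Mrpl53, specific to the mitochondrial large subunit, was at 29.0, 26.7 and 21.8 CPM in WT and 14.1, 9.33 and 11.5 CPM in Cxcl5-/- (−1.15 ± 0.15, adjusted p = 4.6e-05). Mrpl38, of the central protuberance, was at 42.2, 36.0 and 35.3 CPM in WT and 18.4, 14.5 and 18.5 CPM in Cxcl5-/- (−1.14 ± 0.11, adjusted p = 2.36e-06). For all 3 genes the WT and Cxcl5-/- libraries were apart, and with library totals the differences remained past the threshold (−1.35, −0.78 and −0.76, with adjusted p of 0.000346, 0.000603 and 6.29e-05). Most exon bases of Mrpl53 (695 of 790) overlap the gene model Gm42688 on the same strand, so its count may be divided between them. Mrpl27, which reaches towards the peptidyl transferase centre, was the member called higher, at 10.4, 11.5 and 9.65 CPM in 3D WT and 17.7, 12.2 and 14.9 CPM in 3D Cxcl5-/- (0.51 ± 0.13, adjusted p = 0.00495), whereas in the rescue table its difference was −0.26 and not called (adjusted p = 0.196). It was at 18.4 to 19.9 CPM in the 2D Cxcl5-/- libraries and 18.6 to 19.5 CPM in the 2D WT libraries.

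The difference between the genotype effect in 3D and that in 2D was tested directly as an interaction. It was called negative for 30 members and positive for 1, Mrpl27, with 16.1% of all genes called negative and 11.1% positive. Mrpl12 (−1.70), Mrpl53 (−1.03) and Mrpl38 (−0.996) were among the 30. This count moved with single libraries: it was 58 without replicate 1 of 3D Cxcl5-/-, the library with the highest share of counts in noncoding RNA (23.2% against 12.9 and 14.2% in the other replicates), 20 without replicate 2 of 3D Cxcl5-/- and 16 without replicate 1 of 2D Cxcl5-/-. With library totals it was 6 negative and 5 positive.

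The rescue table gave a separate comparison of Cxcl5-/- with WT in 3D, on other libraries. There 62 members were called lower and 0 higher, with 24.3% of the 28730 genes tested called lower and 17.6% higher, and the members' median was −0.66 against −0.30 for all genes. In all 62 both Cxcl5-/- libraries lay below both WT libraries, as they did in 13 of the 16 members not called, so this separation adds little to the calls. With library totals 63 were called lower. Leaving out 1 library leaves a single library in its group, and the member median was then −0.665 to −0.643. The number called lower fell below 62 in every such fit, where the spread comes from the other groups. Its range is given in the last section.
Mrpl38 had the largest difference here, at 10.8 and 14.1 CPM in Cxcl5-/- and 35.8 and 34.6 CPM in WT (−1.50 ± 0.17, adjusted p = 3.98e-05). Mrpl32, whose maturation by the inner membrane m-AAA protease precedes ribosome assembly, was at 13.3 and 13.6 CPM in Cxcl5-/- and 34.1 and 35.9 CPM in WT (−1.38 ± 0.16, adjusted p = 4.62e-05). Mrpl54, a large subunit protein specific to mitochondria, was at 16.1 and 17.4 CPM against 45.2 and 40.7 CPM (−1.36 ± 0.18, adjusted p = 0.000109). In the 2D and 3D table Mrpl54 had been at 41.4, 23.7 and 27.2 CPM in 3D Cxcl5-/- and 46.9, 35.3 and 42.1 CPM in 3D WT, where the groups overlapped (adjusted p = 0.0538). Mrpl12 was at 12.1 and 19.2 CPM in Cxcl5-/- and 42.4 and 33.2 CPM in WT (−1.27 ± 0.39, adjusted p = 0.0223), with a wider spread than the genes above. The fibroblast marker sum was 270 to 271 CPM in these Cxcl5-/- libraries and 23.0 to 26.1 CPM in WT, and the epithelial sum 287 to 302 and 856 to 903 CPM, in the same directions as in the other table, and their part in the member differences was not tested.

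Over these 2 comparisons 46 members were called lower in Cxcl5-/- spheroids, which is 85.2% of the 54 called in the 2D and 3D table and 74.2% of the 62 called in the rescue table. A further 8 were called lower in the former alone and 16 in the latter alone, and 70 of 78 had a negative difference in both. Among the 21058 genes tested in both tables, 3212 (15.3%) were called lower in both, against 59.0% of the members. These overlaps hold for TMM scaling. They were not counted with library totals, where fewer members were lower in the 2D and 3D table. The sizes of the member differences were moderately related across genes (Pearson's r = 0.48 and Spearman's rho = 0.43 over 78 genes, and 0.43 and 0.40 without Mrpl12), less closely than over all genes (0.59 and 0.67). Genes are not independent replicates, so no p is given.

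**Figure D3:**
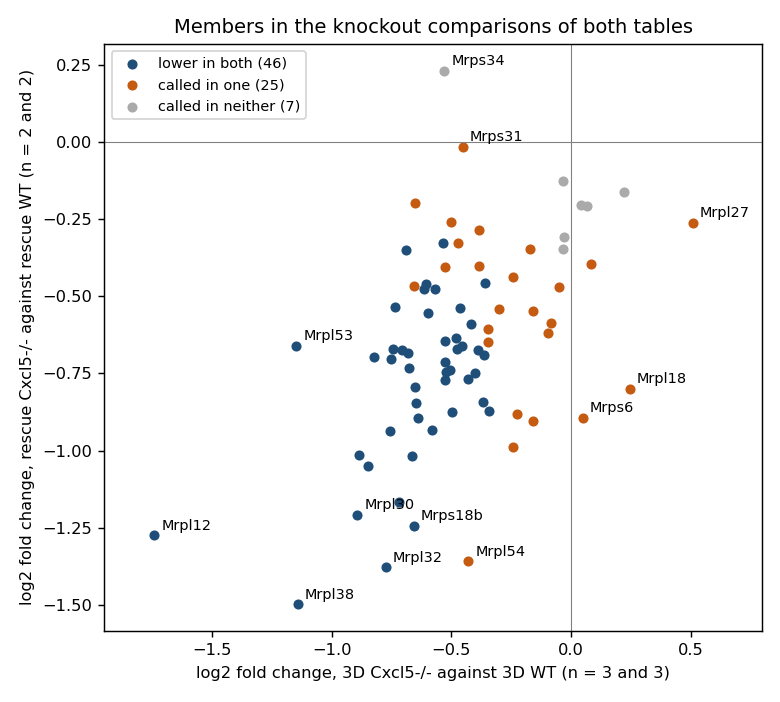
Log2 difference between Cxcl5-/- and WT spheroids for each member in the 2D and 3D table (x axis) and in the rescue table (y axis), coloured by whether the gene was called lower in both (46), called in a single table (25, of which 24 lower and Mrpl27 higher) or in neither (7). Most points lie at the lower left, with Mrpl12 and Mrpl38 farthest from the origin.

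Overexpression of Hif1a in Cxcl5-/- cells went with higher levels of the whole set: all 78 members were called higher than in Cxcl5-/- alone, with 20.5% of all genes called higher and 15.0% lower. The members' median log2 difference was 0.97 and the smallest 0.38, while the median of all genes was 0.16. Mrpl54 was at 52.2, 72.3 and 47.3 CPM in Hif1a OE, against the 16.1 and 17.4 CPM above (1.77 ± 0.17, adjusted p = 1.14e-05). Mrps28 of the small subunit rose from 7.51 and 7.03 CPM to 20.6, 30.6 and 21.2 CPM (1.73 ± 0.17, adjusted p = 1.54e-05). Mrpl36, a counterpart of a small bacterial protein of the large subunit, rose from 8.59 and 8.65 CPM to 28.6, 33.4 and 21.3 CPM (1.69 ± 0.18, adjusted p = 2.26e-05). Replicate 2 of Hif1a OE was the highest library for each of these genes, and all Hif1a OE libraries were above both Cxcl5-/- libraries. Other measures moved in the same comparison: the epithelial marker sum was 287 to 302 CPM in Cxcl5-/- and 705 to 837 CPM in Hif1a OE, the fibroblast sum 270 to 271 and 29.3 to 45.5 CPM, and abundant noncoding RNA took 9.41 to 10.8% and 17.3 to 21.5% of all counts. Their part in the member differences was not tested. The smallest difference was that of Mrps5, at 21.8, 23.9 and 19.2 CPM against 15.4 and 17.9 CPM (0.38 ± 0.13, adjusted p = 0.0492).

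Overexpression of Myc, compared with the same Cxcl5-/- libraries, gave 77 members higher and 0 lower, with 21.6% of all genes called higher and 18.0% lower, and a member median of 1.18 against 0.11 for all genes. Mrps15, a small subunit protein that binds early in assembly in bacteria, stood apart at 87.4, 83.8 and 79.8 CPM in Myc OE against 14.8 and 16.4 CPM in Cxcl5-/- (2.42 ± 0.16, adjusted p = 7.63e-07). No library of another group in the rescue table held more than 37.7 CPM of Mrps15. Mrpl30, a counterpart of a bacterial large subunit protein, rose from 26.0 and 25.1 CPM to 99.0, 92.7 and 80.1 CPM (1.82 ± 0.19, adjusted p = 1.71e-05), and Mrpl54 reached 62.8, 56.8 and 53.8 CPM (1.79 ± 0.17, adjusted p = 7.71e-06). Both genes had every Myc OE library above both Cxcl5-/- libraries. Mrpl33 was the member that was not called, at 89.1, 84.6 and 75.0 CPM against 63.9 and 64.6 CPM (0.37 ± 0.16, adjusted p = 0.0849). In Myc OE abundant noncoding RNA took 18.9 to 22.0% of all counts, the fibroblast sum was 148 to 170 CPM, the epithelial sum 267 to 312 CPM and the macrophage sum 59.7 to 76.7 CPM against 34.5 to 34.7 CPM in Cxcl5-/-, and their part in the member differences was not tested. With library totals, 69 members were called higher in Hif1a OE and 75 in Myc OE.

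**Figure D4:**
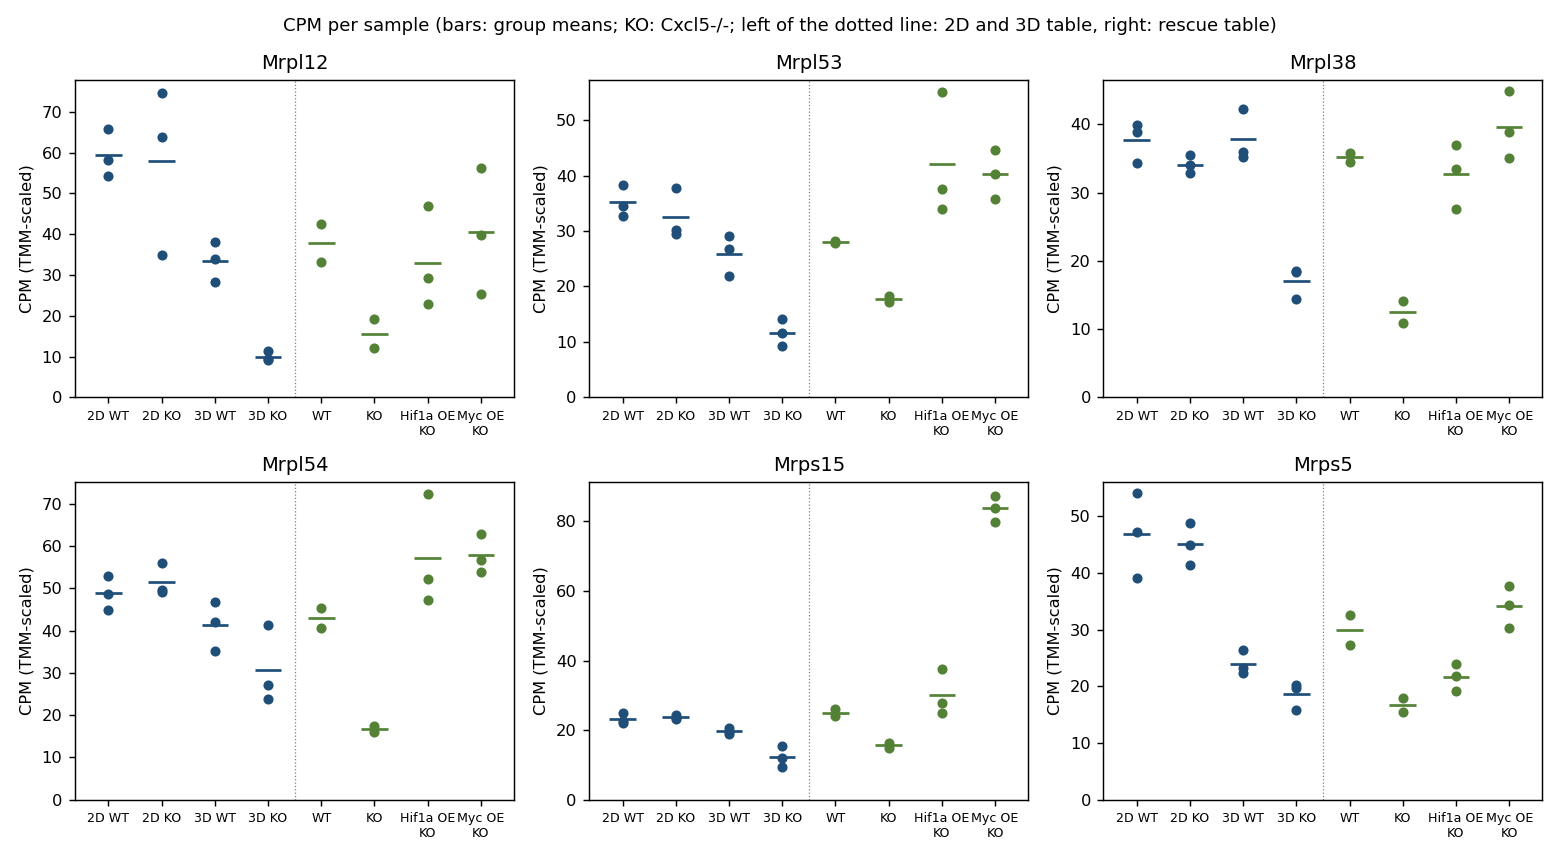
CPM in every library of the 2D and 3D table and of the rescue table for Mrpl12, Mrpl53, Mrpl38, Mrpl54, Mrps15 and Mrps5, each point a library. Mrps15 stands apart in Myc OE at 79.8 to 87.4 CPM, Mrpl12 is lowest in the Cxcl5-/- spheroids, and Mrps5 is highest in the 2D groups.

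Against WT spheroids the overexpression lines were higher for part of the set. In Hif1a OE 37 members were called higher and 2 lower than in WT (13.9% of all genes higher and 10.3% lower, member median 0.42 against −0.10 for all genes). In Myc OE 53 were called higher and 0 lower (17.1% and 14.7%, member median 0.55 against −0.17). With library totals the counts were 25 higher and 3 lower in Hif1a OE and 31 higher and 3 lower in Myc OE, and with size factors 20 were higher in Hif1a OE. Both counts rest on 2 WT libraries. Leaving 1 of them out leaves a single WT library, so that the spread comes from the other groups, and medians are given here for such fits. The ranges of counts in the last section include these fits and carry that limit. With any 1 library of the compared groups left out, the member median was 0.26 to 0.485 for Hif1a OE and 0.485 to 0.63 for Myc OE. These comparisons share the WT libraries with the knockout comparison, and the values below are set side by side only.
Mrpl36 was at 13.5 and 12.7 CPM in WT and was higher in Hif1a OE (1.08 ± 0.17, adjusted p = 0.00117) and in Myc OE (1.12 ± 0.17, adjusted p = 0.000558). Mrpl34, a small bacterial-type protein, was at 17.3 and 13.6 CPM in WT and at 25.5, 37.0 and 24.6 CPM in Hif1a OE (0.91 ± 0.20, adjusted p = 0.00814). Mrps28 was at 12.8 and 13.3 CPM in WT, below all Hif1a OE libraries (0.88 ± 0.16, adjusted p = 0.00292). The largest difference of Myc OE from WT was that of Mrps15, at 26.1 and 24.0 CPM in WT (1.74 ± 0.15, adjusted p = 1.32e-05), followed by Mrpl41, specific to the mitochondrial large subunit, at 18.3 and 17.9 CPM in WT and 44.5, 47.4 and 36.0 CPM in Myc OE (1.23 ± 0.16, adjusted p = 0.000182). All Myc OE libraries lay above both WT libraries for these genes. The genes called lower than WT in Hif1a OE were Mrps5, at 32.6 and 27.3 CPM in WT (−0.47 ± 0.13, adjusted p = 0.0256), and Mrps2, at 32.9 and 31.7 CPM in WT and 24.1, 26.2 and 21.8 CPM in Hif1a OE (−0.43 ± 0.11, adjusted p = 0.0144). In Myc OE these genes were not called, with log2 differences from WT of 0.19 and −0.06. Of the 62 members called lower in Cxcl5-/- than in WT, 35 were not called against WT in Hif1a OE, 25 were called higher and 2 lower, and in Myc OE 25 were not called and 37 were called higher. Mrpl12, Mrpl38 and Mrpl32 were among those not called in Hif1a OE, at log2 differences from WT of −0.19, −0.10 and −0.10.

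Compared directly, Myc OE and Hif1a OE differed in a minority of members. In Myc OE 11 were called higher and 1 lower, with 9.54% of all genes called higher and 9.73% lower, and the member median was 0.18 against −0.02 for all genes. Mrps15 had the largest difference, with Hif1a OE at 27.8, 37.7 and 25.0 CPM (1.47 ± 0.13, adjusted p = 1.63e-05). Mrps5, which lines the path by which mRNA enters the small subunit, was at 37.8, 30.3 and 34.4 CPM in Myc OE against 21.8, 23.9 and 19.2 CPM (0.66 ± 0.12, adjusted p = 0.00224). Mrpl13 was at 82.4, 81.5 and 68.0 CPM in Myc OE and 48.1, 59.3 and 41.0 CPM in Hif1a OE (0.64 ± 0.13, adjusted p = 0.00394). In these genes the lowest Myc OE library lay above the highest Hif1a OE library. Mrps30 was the member called lower in Myc OE, at 37.8, 34.7 and 37.3 CPM against 46.6, 50.0 and 43.1 CPM (−0.35 ± 0.08, adjusted p = 0.00844). The other members called higher were Mrps9, Mrpl28, Mrpl4, Mrps26, Mrps2, Mrps25, Mrpl15 and Mrpl41. The number called higher moved with single libraries, being 25 without Hif1a OE replicate 2, 4 without replicate 1 and 6 without replicate 3, and 6 and 5 without Myc OE replicates 1 and 2. With library totals it was 8 higher and 5 lower.

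The medians of the large and the small subunit lay close to each other in each comparison, without a test of their difference. Between 3D Cxcl5-/- and 3D WT, 34 of 49 large subunit genes (median −0.50) and 20 of 29 small subunit genes (median −0.46) were called lower. In the rescue table these counts were 41 (median −0.67) and 21 (median −0.65). The medians over the large and the small subunit were 0.95 and 1.03 for Hif1a OE against Cxcl5-/- and 1.18 and 1.14 for Myc OE. Of the 12 members that differed between Myc OE and Hif1a OE, 7 are named for the small subunit and 5 for the large. Names do not always give the place: Mrps18a and Mrps30 sit in the large subunit, and Mrps36 is no component of the ribosome structures but of the 2-oxoglutarate dehydrogenase complex.
Sorted by origin, 45 members have a bacterial counterpart and 31 are specific to mitochondria. In 3D Cxcl5-/- against WT, 33 of the former (median −0.53) and 19 of the latter (median −0.45) were lower. In the rescue table the counts were 38 and 23, with medians of −0.66 in both classes. Against Cxcl5-/-, the medians of the bacterial-type and mitochondria-specific members were 1.07 and 0.88 in Hif1a OE and 1.26 and 1.02 in Myc OE, and within the small subunit 1.18 and 0.77 in Hif1a OE and 1.24 and 0.93 in Myc OE. No test was run between these classes.

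The 16 members chosen by role, 15 in the ribosome and Mrps36, were called lower in 3D Cxcl5-/- in 12 cases, where 25.3% of all genes were. Mrpl2 and Mrpl3, near the peptidyl transferase centre, fell in the Cxcl5-/- spheroids of the 2D and 3D table (−0.66 and −0.61), and with library totals these were −0.28 (adjusted p = 0.0161) and −0.23 (adjusted p = 0.025). Of the stalk, Mrpl10, which anchors Mrpl12, was lower (−0.53, adjusted p = 0.000517, but −0.15 and adjusted p = 0.156 with library totals), whereas Mrpl11 of the stalk base was not called (−0.05, adjusted p = 0.812) and became 0.32 with library totals. Mrpl45, which holds the ribosome at the inner membrane (−0.50), and the peptidyl-tRNA hydrolase Mrpl58 (−0.40) were called lower with TMM and stood at −0.13 and −0.03 with library totals. In the small subunit Mrps12 of the decoding centre was lower under both scalings (−0.75, and −0.37 with adjusted p = 0.0075), and Mrps27, a pentatricopeptide repeat protein, was −0.70 with TMM and −0.31 (adjusted p = 0.125) with library totals.
The 3 Mrps18 genes encode related proteins with different places in the ribosome. Mrps18b was called lower in Cxcl5-/- than in WT in the 2D and 3D table (−0.66, and −0.29 with adjusted p = 0.0567 with library totals) and in the rescue table (−1.24 ± 0.17). Mrps18a was not called in either (−0.03 and −0.35, the latter with adjusted p = 0.125), and Mrps18c was −0.30 (adjusted p = 0.157, and 0.06 with library totals) in the 2D and 3D table. Mrps5 was called lower there with TMM (−0.37) and stood at 0.013 with library totals, and Mrps2 was −0.23 and 0.17, neither called. Mrps30 (−0.46) and Mrps36 (−0.53) were called lower with TMM and stood at −0.08 and −0.14 with library totals.
In the rescue table, 14 of these 16 members chosen by role were called lower in Cxcl5-/- than in WT, where 24.3% of all genes were, from Mrpl10 at −0.33 to Mrpl12 at −1.27, and Mrps18a and Mrps36 (−0.41, adjusted p = 0.116) were not. All 16 were called higher in Hif1a OE than in Cxcl5-/-, from Mrps5 at 0.38 to Mrpl2 at 1.48, and in Myc OE, from Mrps30 at 0.69 to Mrps18b at 1.61. Comparing 3D WT with 2D WT, 10 were called lower, where 22.0% of all genes were, and Mrpl10, Mrpl45, Mrps12, Mrps27, Mrps30 and Mrps36 were not called, at 0.11, −0.09, −0.07, −0.28, −0.02 and −0.11.

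Other genes around the mitochondrial ribosome were read from lists of known function. Of 5 ribosome components that carry other names, among them the small subunit GTPase Dap3 and Gadd45gip1, 3 were lower in Cxcl5-/- spheroids in the 2D and 3D table, 4 were lower in the rescue table, and all 5 were higher in Hif1a OE and in Myc OE than in Cxcl5-/-. With library totals 2 were lower (Dap3 and Gadd45gip1) and Aurkaip1 higher (0.23, adjusted p = 0.0414) in the 2D and 3D table, 3 were lower in the rescue table, and 4 were higher in each overexpression line. Over all genes 25.3% and 24.3% were called lower in these knockout comparisons with TMM. With TMM, Dap3 was at log2 differences of −0.85, −0.47, 0.78 and 1.12 in these comparisons and Gadd45gip1 at −0.71, −1.01, 1.40 and 1.49.
Of 15 mitochondrial translation factors and mRNA-binding proteins, 7 were lower and 2 higher in 3D Cxcl5-/- with TMM, but 3 lower (Tufm, Tsfm and Gfm1) and 4 higher (Lrpprc, Mtif2, Mrrf and Guf1) with library totals. Of the 15, 4 were lower in the rescue table under both scalings, near the 24.3% of all genes: the elongation factors Tufm (−0.84), Tsfm (−0.76) and Gfm1 (−0.41), and Slirp (−0.75), which stabilises mitochondrial mRNA. Against Cxcl5-/-, 10 were higher and 1 lower (Gfm2) in Hif1a OE, and 11 were higher and 0 lower in Myc OE, led there by Slirp (1.86), Tsfm (1.43) and Tufm (1.15). With library totals 6 were higher and 1 lower in each.
Of 24 assembly factors, 3 were higher and 3 lower in each knockout comparison in 3D with TMM, a smaller share in either direction than over all genes. With library totals 12 were higher and 0 lower in 3D Cxcl5-/-, led by Mpv17l2 (0.81) and Trub2 (0.78), and 4 higher and 3 lower in the rescue table. With TMM the higher ones in the rescue table were Mterf4, Malsu1 and Mpv17l2 and the lower ones Mrm3, Fastkd2 and Eral1. In Hif1a OE 13 were higher and 1 lower than in Cxcl5-/-, and in Myc OE 16 were higher and 0 lower (8 and 2, and 7 and 2, with library totals). Of 12 regulators of mitochondrial gene expression only some are described here. Myc was lower in Cxcl5-/- than in WT spheroids in the 2D and 3D table (−1.75) and in the rescue table (−1.17). Ppargc1a was at 3.47, 2.59 and 2.69 CPM in 3D WT and 0.02, 0.00 and 0.09 CPM in 3D Cxcl5-/-. Ppargc1b went the other way, at 1.05, 1.40 and 1.11 CPM against 1.77, 2.69 and 2.00 CPM. Nrf1 was lower in the rescue Cxcl5-/- cells (−0.37) and Pprc1 higher (0.56). The mitochondrial transcription factor Tfam was higher in Hif1a OE (0.62) and Myc OE (0.77) than in Cxcl5-/-.

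The 13 protein-coding genes of the mitochondrial genome, whose mRNAs the mitochondrial ribosome translates, were described in the same comparisons. Comparing Cxcl5-/- with WT in the rescue table, 5 were higher and 1 lower, with mt-Nd4 at 1.39, mt-Nd5 at 1.26 and mt-Co1 at −0.71. In 3D Cxcl5-/- against 3D WT 6 were higher and 2 lower with TMM, and 7 higher and 0 lower with library totals. In Hif1a OE 3 were higher (mt-Nd3, mt-Co3 and mt-Co1) and 7 lower than in Cxcl5-/-, with a median of −0.42, and in Myc OE 4 were higher and 5 lower, with a median of −0.09 (2 higher and 7 lower, with a median of −0.43, with library totals). Between Myc OE and Hif1a OE 0 were called.

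The cytosolic ribosomal proteins and the nuclear genes of the respiratory chain had medians of the same sign as the members in these comparisons. Of 79 cytosolic ribosomal protein genes tested, 69 fell between WT and Cxcl5-/- spheroids in the 2D and 3D table (median −0.73, and 49 lower and 1 higher with library totals), 78 were lower in the rescue table (median −1.19), and 78 and 79 were higher in Hif1a OE and Myc OE than in Cxcl5-/- (medians 1.5 and 2.13). Between Myc OE and Hif1a OE 64 of them were higher and 0 lower (median 0.63), where 11 of the 78 mitochondrial ones were higher. The ratio of the cytosolic to the mitochondrial ribosomal protein sum was 12.4 ± 0.30 in rescue Cxcl5-/- (SD, n = 2), 18.0 ± 0.16 in WT (SD, n = 2), 16.7 ± 0.79 in Hif1a OE (SD, n = 3) and 23.5 ± 0.54 in Myc OE (SD, n = 3). It was 18.4 ± 0.79 in 3D WT and 14.9 ± 0.95 in 3D Cxcl5-/- (SD, n = 3 each).
Of the respiratory chain genes, 41 of 88 were lower and 0 higher in 3D Cxcl5-/- than in 3D WT (median −0.31, and 10 lower and 8 higher with library totals) and 48 of 89 were lower in the rescue table (median −0.52). In Hif1a OE 79 were higher and 1 lower than in Cxcl5-/- (median 1.04), and in Myc OE 85 were higher and 0 lower (median 1.33). The difference between the lists was not tested.

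**Figure D5:**
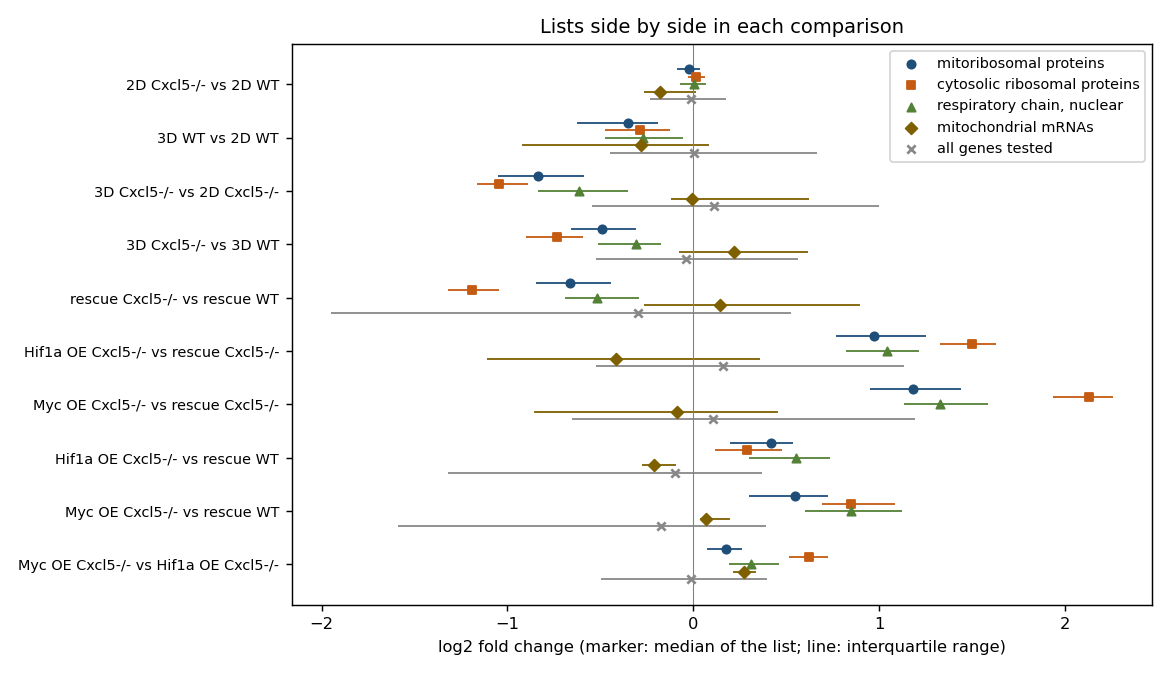
Median log2 difference (points) with the interquartile range (lines) in 10 comparisons. Shown are the 78 members, cytosolic ribosomal proteins, nuclear respiratory chain genes, the 13 protein-coding mitochondrial genes (labelled mitochondrial mRNAs) and all genes tested. In Myc OE against Cxcl5-/- the medians are 1.18 for the members, 2.13 for the cytosolic ribosomal proteins, 1.33 for the respiratory chain and −0.09 for the mitochondrial mRNAs.

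No member was called after conditioned medium. By edgeR 0 of 78 members were called in M1-CM against Ctrl (0.0156% of all 19207 genes higher and 0% lower), in M1-CM against M0-CM (0.0156% and 0%) or in M0-CM against Ctrl (0% and 0%), and the lowest adjusted p of any member was 0.965. At an unadjusted p under 0.05 edgeR gave 0, 0 and 1 members (Mrpl47 in the last), and DESeq2 called 0. The member sum was 2286, 2846 and 2661 CPM in Ctrl, 2435, 2789 and 2827 CPM in M0-CM and 2649, 1781 and 2738 CPM in M1-CM, so that replicate 2 of M1-CM stood below all other libraries and the groups overlapped. The members' medians of −0.13 against Ctrl and −0.18 against M0-CM became 0.04 and 0.01 without that library. Mrpl12 was at 16.2, 19.7 and 9.87 CPM in Ctrl, 14.6, 20.2 and 14.9 CPM in M0-CM and 20.3, 18.5 and 24.1 CPM in M1-CM, with the highest value in M1-CM replicate 3 and overlapping groups. Few simulated differences were detectable at this spread. Of simulated 2-fold changes in M1-CM against Ctrl 5.5% were recovered. The share was 72.5% for 3D WT against 2D WT and 59% for the rescue Cxcl5-/- against WT. The simulation changed 200 genes drawn without regard to membership and left all others unchanged, so these shares do not measure the power for the members. Cxcl5 itself was at 662 to 719 CPM in M1-CM and 78.1 to 117 CPM in Ctrl.

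Some counts are uncertain because of neighbouring or copied sequence. The exons of Mrps34 overlap Nme3 on the same strand over 763 bp. Those of Mrps6 overlap Gm49711 and Slc5a3 over 464 bp together, with smaller overlaps at Mrpl33, Mrpl3, Mrpl51, Mrps18c and Mrps24. Mrpl46 (chr7:78775236-78783531, minus strand) overlaps Mrps11 (chr7:78783119-78792989, plus strand), and the use of strand in counting is not given in the sources used here. Other members overlap genes on the opposite strand too, among them Mrpl12 (Gm16755), Mrpl18 (Tcp1), Mrpl24 (Rrnad1), Mrpl27 (Eme1), Mrpl36 (Ndufs6) and Mrps7 (Gga3 and Mif4gd). Mrpl23, Mrpl27, Mrpl48 and Mrps36 have annotated pseudogenes that may take part of their reads. The gene of Mrpl12 lies at chr11:120484613-120489065, that of Mrpl38 at chr11:116131817-116138868, that of Mrpl54 at chr10:81264713-81266934, that of Mrps15 at chr4:126046925-126055532 and that of Mrps5 at chr2:127587222-127606829 (GRCm38, GENCODE M21), and the RNA-seq counts cover their annotated exons.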

How the data were processed

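The deposited values are raw gene counts per sample. Per the labels and the study's methods, the authors sequenced rRNA-depleted stranded libraries, aligned reads with HISAT2 to mm10 and quantified genes with StringTie. The annotation release is not given in the sources used here. 3 tables of 9, 12 and 10 samples were analysed separately, with groups taken from the sample labels. edgeR 4.0.16 (R 4.3.3) was run on all groups of a table, with genes filtered by filterByExpr, TMM scaling, the quasi-likelihood F-test and Benjamini-Hochberg adjustment over all genes tested, and genes with an adjusted p under 0.05 were called. The SE is the log2 difference divided by the square root of F. Alternatives were DESeq2 1.42.0, size factors, library totals, other filters, only the groups compared, a replicate block and leaving out each library. The fits were tested on simulated counts. The members and lists were chosen with earlier results of these data known. The text names, per comparison, the 3 members with the largest rise and the 3 with the largest fall among those called without overlap, members with known roles, and the highest and lowest per kilobase. Others are named where a count is small or a sequence is shown, chosen after their values were seen. GENCODE M21 was used for exon lengths and overlaps and RefSeq for promoters.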

Additional observations from a re-analysis of the deposited data

Results flagged for a closer look

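The genotype effect in 3D differed from that in 2D for part of the set by a direct test of the difference (the interaction term of the edgeR fit, with TMM scaling). The difference was called positive for 1 member and negative for 30. Among the members named in the text it was 0.54 for Mrpl27, −1.70 for Mrpl12, −1.03 for Mrpl53, −0.996 for Mrpl38, −0.56 for Mrpl10, −0.62 for Mrpl2, −0.40 for Mrpl3, −0.65 for Mrps12, −0.77 for Mrps27 and −0.56 for Mrps30, each on the log2 scale as the effect in 3D minus that in 2D. Scaling by library totals gave 5 positive and 6 negative. The study checked the knockout by immunoblot of the protein. The effect in 3D rests on libraries in which the Cxcl5 transcript goes against the label. In the same libraries Hif1a (−1.21) and Myc (−1.75) were below their levels in the WT spheroids, as they were in the rescue table (−1.18 and −1.17).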

How the results depend on the processing

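Counts of members called are the numbers that moved most with the processing. The shares of all genes given in the text belong to the TMM fit, so counts under other settings have no such share beside them. Scaling by library totals gave 0 higher and 68 lower in 3D WT against 2D WT, 13 higher and 20 lower in 3D Cxcl5-/- against 3D WT, 5 positive and 6 negative in the interaction, 1 lower in 2D Cxcl5-/- against 2D WT, 5 lower in Myc OE against Hif1a OE, and 31 higher and 3 lower in Myc OE against WT. In 3D Cxcl5-/- against 3D WT this scaling turned Mrpl11 to 0.32 (adjusted p = 0.0465), Mrps18a to 0.35 (adjusted p = 0.0187) and Mrps5 to 0.013 (adjusted p = 0.941). In 3D WT against 2D WT 2 members were higher with the DESeq2 Wald test, with size factors, with at least 10 counts in every sample and with only the groups compared. With at least 10 counts in every sample, 1 was higher in 3D against 2D Cxcl5-/-, 1 lower in 2D Cxcl5-/- against 2D WT, 3 higher in 3D Cxcl5-/- against 3D WT, and 4 lower in Myc OE against Hif1a OE. The DESeq2 Wald test gave 2 lower in 2D Cxcl5-/- against 2D WT, as did the fit of only these groups, and 17 higher in Myc OE against Hif1a OE. Size factors gave 20 higher in Hif1a OE against WT, and no filter gave 1 lower there and 13 negative in the interaction. Leaving out each library in turn gave, as ranges, 0 to 1 positive and 16 to 58 negative in the interaction, 4 to 25 higher and 1 to 4 lower in Myc OE against Hif1a OE, 11 to 42 higher and 0 to 2 lower in Hif1a OE against WT, 32 to 52 higher in Myc OE against WT, 1 to 3 higher and 38 to 63 lower in 3D Cxcl5-/- against 3D WT, and 0 to 1 higher and 41 to 47 lower in rescue Cxcl5-/- against WT. The cause of these changes was not tested. Every fit behind the range for rescue Cxcl5-/- against WT leaves a single library in 1 group. The ranges for Hif1a OE and Myc OE against WT include fits with a single WT library. In such fits the spread comes from the other groups, so these counts are weaker evidence than the medians. The labels do not say whether same-numbered replicates share a batch. Their deviations correlated at −0.24 to 0.36, −0.10 to 0.18 and −0.02 to 0.05 in the 3 tables. Between Ctrl and M0-CM they correlated at 0.36, 0.25 and 0.07, against −0.28 to 0.04 for pairs with different numbers. Between Ctrl and M1-CM they correlated at −0.11, −0.24 and 0.06. Between 3D WT and 3D Cxcl5-/- they correlated at 0.081, 0.069 and 0.012, against −0.071 to 0.006 for pairs with different numbers. A shared batch was not tested. A fit with the replicate block gave 1 lower in 2D Cxcl5-/- against 2D WT and 4 lower in Myc OE against Hif1a OE. Fitting only the groups compared was not run for the interaction. Of the single member values under all alternatives, 2913 kept their direction and side of the threshold, 170 lost a call, 36 gained a call, 148 that were called under neither setting changed sign and 3 reversed.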
